A study of Mus musculus with 8 samples.

Results

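Skeletal muscle fibers contract when an action potential that travels down the transverse tubules is turned into calcium release from the sarcoplasmic reticulum, and the place where this happens is the triad, a transverse tubule held between terminal cisternae of the reticulum. The genes described here are 10 parts of that machinery, namely the voltage-sensing dihydropyridine receptor of the tubule (*Cacna1s*, *Cacna2d1*, *Cacnb1* and *Cacng1*), the calcium release channels of the reticulum (*Ryr1* and *Ryr3*), the junctophilins that tie the membranes together (*Jph1* and *Jph2*), and the calcium sensor and plasma membrane pore of store-operated entry (*Stim1* and *Orai1*). They were chosen by gene symbol from a table of 55401 genes, and each symbol matched a single row. All 10 passed the minimum mean normalized count of 10 that left 13677 genes to be tested.

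RNA-seq was performed on TA (tibialis anterior) muscles of *mdx5cv* mice, a dystrophic model that carries a mutation of *Dmd* in the whole animal and so lacks most dystrophin, and of wild-type (WT) mice. Each group held 4 muscles, and all mice had the C57/Bl6 background and an age of 6 mo. The study's methods give male mice as the default. The labels number the muscles from 1 to 4 in each group and do not state that each came from a separate mouse, so the p-values measure the spread between these samples. The comparison asked which genes of excitation-contraction coupling and store-operated calcium entry differ in transcript level in dystrophic TA muscle.

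In excitation-contraction coupling the dihydropyridine receptor senses the tubule voltage and opens the ryanodine receptor facing it by direct contact, which requires the narrow gap that junctophilins maintain. When the reticulum is emptied, STIM1 clusters in its membrane and opens ORAI1, and this entry route works within the same junctions in muscle. Calcium handling has long been studied in muscle that lacks dystrophin, because a raised calcium load is regarded as a step between membrane damage and fiber loss.

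The authors deposited normalized counts, which are the reads of a gene divided by a size factor for the muscle. Each muscle held between 13175524 and 14921057 recovered reads, and size factors ran from 0.873 to 0.944 in WT and from 1.06 to 1.25 in *mdx5cv*. *Dmd*, the mutated gene, had between 6169 and 8155 normalized counts in WT and between 3461 and 4400 in *mdx5cv*, without overlap (log2 fold change -0.81, SE 0.12, where SE is the standard error, adjusted p = 0.000177 in limma). The fast fiber markers that define TA muscle summed to between 1235980 and 1468420 normalized counts in WT and between 878461 and 1311420 in *mdx5cv*, where 5 of 10 were lower and 0 higher. The median deviation of the fast fiber list from the WT mean was lowest in *mdx5cv* replicate 4, at -0.79 on the log2 scale. It was -0.35 to -0.15 in the other *mdx5cv* muscles and -0.14 to 0.03 in WT. Markers of regenerating fibers (7 of 7 higher, sums of 332 to 452 in WT and 2857 to 10029 in *mdx5cv*), macrophages (6 of 6 higher, 481 to 746 and 3565 to 8548), fibroblasts (4 of 5 higher, 5196 to 7870 and 17446 to 31390) and slow fibers (4 of 6 higher, 288 to 555 and 1152 to 2549) were more abundant in *mdx5cv*, and 4 of 4 endothelial markers were lower (2394 to 2882 and 1438 to 1878). The slow fiber markers not called were a slow myosin heavy chain gene (log2 fold change 1.47) and a myosin light chain gene (-0.98). Their adjusted p-values were 0.111 and 0.418 in limma. Some of the regenerating fiber and macrophage markers had a WT mean under the minimum of 10. They passed it only through *mdx5cv*, so these could be called only as higher. Of 3 smooth muscle markers tested 1 was lower and 1 higher (1325 to 1977 and 1491 to 2046). Beside these marker counts, 20.1% of all genes tested were lower and 20.9% higher at an adjusted p under 0.05 in limma. Lymphocyte markers were too low to test (2.12 to 5.48 and 8.34 to 14.4), and of the cardiac markers (46.1 to 79.1 and 10.2 to 38.7) *Nppa* was at 0 in every muscle and *Myh6* alone could be tested and was lower. The part of these other cells in the results was not tested, and in bulk RNA a smaller amount of a cell type cannot be told apart from less RNA per cell.

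The limma test was applied to log2(normalized count + 1) of all genes tested, with Benjamini-Hochberg adjustment, and fold changes are given on this log2 scale as *mdx5cv* minus WT. At an adjusted p under 0.05, *Jph1* and *Cacnb1* were lower in *mdx5cv*, *Cacng1* was higher, and the other 7 genes did not pass. The 2 lower and 1 higher genes stand beside 20.1% of all genes tested that were lower and 20.9% that were higher, so the share of called genes in this set was not above that of all genes. None of the 10 also reached a log2 change of 1 in either direction, where 3.27% of all genes were lower and 10.3% were higher. The groups did not overlap, with *mdx5cv* lower, for *Jph1* and *Cacna1s* (19.8% of all genes), and with *mdx5cv* higher for *Cacng1* (20.3% of all genes). The median log2 fold change of the 10 genes was -0.05, beside 0.00 for all genes tested. Without *mdx5cv* replicate 4, 1 gene was lower and 1 was higher, because *Cacnb1* was no longer called.

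**Figure D1:**
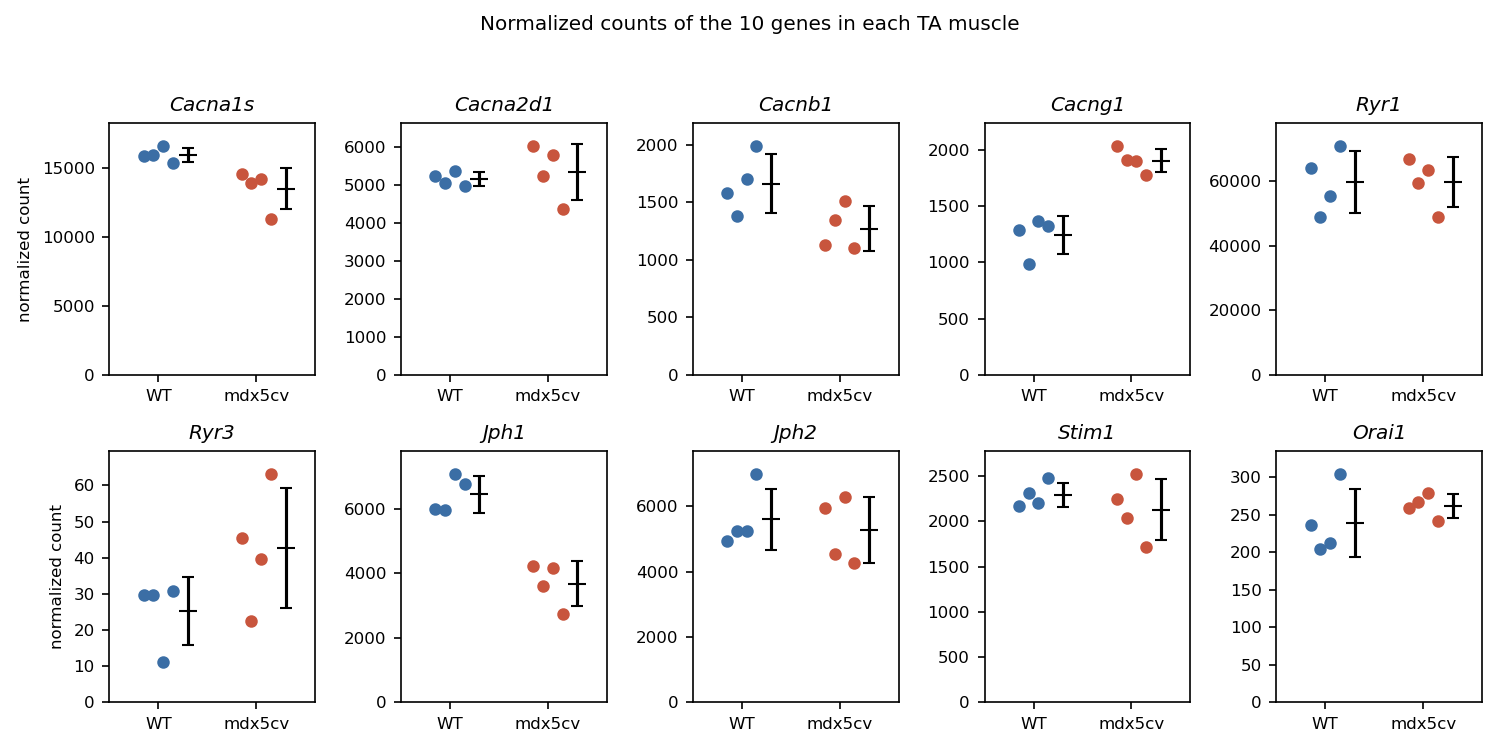
Normalized counts (y axis, linear, from 0) of the 10 genes in each of 4 WT (blue) and 4 *mdx5cv* (red) TA muscles, with the mean and SD of each group in black. The *mdx5cv* muscles of *Jph1* (2732 to 4225) sit under all WT muscles (5962 to 7078), those of *Cacng1* (1782 to 2035) sit over all WT muscles (990 to 1365), and the *Ryr1* values of the groups lie over each other.

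These calls were also made under other scalings of the libraries. The median log2 fold change over the genes tested was 0.00 with the deposited size factors, 0.36 once all muscles were scaled to the same total, and 0.37 once each muscle was centred on the fast fiber list. The share of called genes that were higher went from 51.0% to 86.9% and 89.6%, respectively. *Jph1* stayed lower and *Cacng1* stayed higher under both scalings, with log2 fold changes of -0.47 and 0.99 under equal totals and -0.46 and 0.99 relative to the fast fiber list. The call of *Cacnb1* was lost under both (-0.03 and -0.02). *Ryr3*, *Orai1* and *Cacna2d1* passed as higher under both, with 1.09, 0.50 and 0.40 under equal totals, and *Ryr1* passed only relative to the fast fiber list (0.36, adjusted p = 0.0416, with a range over all its alternatives of 0.0416 to 0.999). The signs of *Cacna1s*, *Ryr1*, *Jph2* and *Stim1* turned from negative to positive under both scalings.

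**Figure D2:**
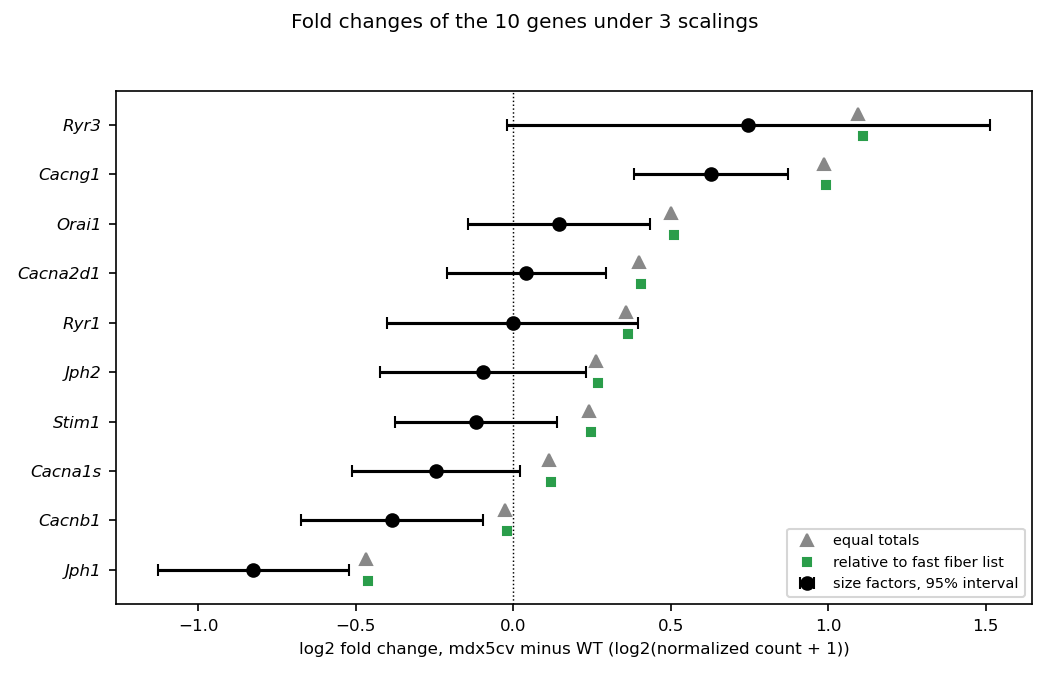
Log2 fold change (x axis, *mdx5cv* minus WT) of each gene with the deposited size factors (black, with the 95% interval from limma, 4 muscles per group), after scaling to equal totals (grey triangles) and relative to the fast fiber list (green squares). Both alternatives sit to the right of the black points by about the shift of all genes (0.36 and 0.37), and *Jph1* and *Cacng1* keep their sides of the dotted line at 0.

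The voltage sensor itself is built around *Cacna1s*, which encodes the pore-forming alpha subunit of the dihydropyridine receptor and lies on the plus strand of chromosome 1 from 136052750 to 136119822 (GRCm38). Its normalized counts were 15839, 15927, 16575 and 15330 in WT muscles and 14545, 13930, 14198 and 11286 in *mdx5cv* muscles. All *mdx5cv* values lay under all WT values, and *mdx5cv* replicate 4 was the lowest by a wide gap. The *mdx5cv* mean was 84.7% of the WT mean, with a log2 fold change of -0.25 (SE 0.12, 95% interval -0.51 to 0.02) that did not pass (adjusted p = 0.131 in limma). Over the alternatives its adjusted p lay between 0.0532 and 0.529, and DESeq2 on the recovered reads gave the lowest. Without *mdx5cv* replicate 4 the log2 fold change was -0.16.

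*Cacnb1* encodes the beta subunit, an intracellular subunit that brings the alpha subunit to the triad, and lies on the minus strand of chromosome 11 from 98001508 to 98023034. Its normalized counts were 1582, 1377, 1699 and 1987 in WT and 1129, 1343, 1512 and 1102 in *mdx5cv*. The groups overlapped, since *mdx5cv* replicate 3 was above WT replicate 2. *Cacnb1* was lower in *mdx5cv* at 76.5% of the WT mean, with a log2 fold change of -0.38 (SE 0.13, adjusted p = 0.0344 in limma). The call was lost without the variance trend (adjusted p = 0.0786) and without WT replicate 1, 3 or 4 or *mdx5cv* replicate 1 or 4, and over all alternatives the adjusted p went from 0.0126 to 0.930.

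Upstream DNA of these subunits is shown so that the letters before their start sites can be read beside the values. RefSeq start windows (GRCm38.p6, 250 bases before to 50 after a start) were matched for 7 of the 10 genes, in 9 windows. *Jph1*, *Cacng1* and *Ryr3* had no window and were not searched for any motif. The printed stretches leave out exons of the same gene, and exons of other genes were not checked. The letters CAGCTG, a form of the E-box motif that myogenic bHLH factors such as MyoD and myogenin bind, were searched on both strands, on which this palindrome reads alike, and are in capitals. These letters were found in the windows of 3 genes, *Cacna1s*, *Jph2* and *Orai1*, beside 16.3% of 32851 windows and 18.3% of 27025 genes in the table. The wider E-box pattern CANNTG, also searched on both strands, contains the first motif and was in the windows of 5 genes, beside 72.3% of all windows and 75% of genes. The MEF2 and CArG motifs were in the windows of 0 members, beside 3.19% and 1.63% of windows and 3.7% and 1.81% of genes. In *Cacna1s*, on the plus strand at chr1:136052561-136052749, the capitals begin 123 bases before the start. *Cacnb1*, on the minus strand, has a start within GC-rich DNA (73.7% of the window, stretch at chr11:98022635-98022877) and a downstream start within DNA of lower GC content (59.3%, stretch at chr11:98018373-98018622), and neither holds the motif.
Cacna1s: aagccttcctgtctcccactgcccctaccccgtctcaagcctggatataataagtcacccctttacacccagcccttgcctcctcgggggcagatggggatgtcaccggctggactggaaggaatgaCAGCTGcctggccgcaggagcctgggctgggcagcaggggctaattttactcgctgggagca
Cacnb1, upstream start: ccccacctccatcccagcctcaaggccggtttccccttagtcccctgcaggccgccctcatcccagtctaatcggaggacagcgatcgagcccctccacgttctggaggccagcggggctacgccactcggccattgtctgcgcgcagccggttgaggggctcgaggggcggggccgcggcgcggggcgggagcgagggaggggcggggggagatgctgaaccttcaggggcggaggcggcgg
Cacnb1, downstream start: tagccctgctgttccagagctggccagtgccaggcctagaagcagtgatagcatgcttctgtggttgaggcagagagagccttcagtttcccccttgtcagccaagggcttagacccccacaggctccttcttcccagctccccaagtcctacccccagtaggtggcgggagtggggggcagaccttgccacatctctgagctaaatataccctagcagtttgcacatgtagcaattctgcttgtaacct

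*Cacng1* encodes the gamma subunit, a membrane subunit found in the skeletal muscle receptor that limits its calcium current, and lies on the minus strand of chromosome 11 from 107703218 to 107716522. Its normalized counts were 1288, 990, 1365 and 1328 in WT and 2035, 1915, 1901 and 1782 in *mdx5cv*. The lowest *mdx5cv* muscle was above the highest WT muscle, and the spread within *mdx5cv* was narrow (SD 104 around a mean of 1908, n = 4). *Cacng1* rose 1.54-fold, with a log2 fold change of 0.63 (SE 0.11, 95% interval 0.38 to 0.87, adjusted p = 0.000788 in limma). The call was made under all 20 alternatives, with adjusted p from 3.61e-06 to 0.00582. The rise was as large without *mdx5cv* replicate 4 (0.66).

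*Cacna2d1* encodes the extracellular alpha2-delta subunit, the target of gabapentin, and lies on the plus strand of chromosome 5 from 15934691 to 16374511. It had 4985 to 5371 normalized counts in WT and 4369 to 6024 in *mdx5cv*. The WT muscles were tightly grouped (coefficient of variation 3.45%) and lay within the wider range of the *mdx5cv* muscles (13.7%). The log2 fold change was 0.04 (95% interval -0.21 to 0.29, adjusted p = 0.801 in limma), and it turned to -0.02 without *mdx5cv* replicate 1. Differences between the subunits were tested as ratios.

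Ratios between genes of the same muscle do not depend on how libraries are scaled and were compared for 8 pairs. They are printed as levels per kilobase of summed exons. The exact two-sided permutation tests, with adjustment over the 8 pairs, and the log2 differences used log2(normalized count + 1) of each gene. The added 1 leaves a small dependence on the scaling where counts are low, as in *Ryr3*. A design of 4 muscles against 4 cannot give a p below 0.0286, and after adjustment even full separation of a few of the 8 pairs cannot pass. Not passing is therefore no sign that a ratio was equal in the groups. *Cacng1* per *Cacna1s* was 0.426, 0.326, 0.432 and 0.454 in WT and 0.734, 0.721, 0.702 and 0.828 in *mdx5cv*. The groups were separated, the mean log2 difference was 0.87, and the exact p was the smallest possible, 0.0286, which came to 0.0762 after adjustment and so did not pass. *Cacna2d1* to *Cacna1s* stood at 0.171 ± 0.00309 in the WT muscles and at 0.209 ± 0.00931 in the *mdx5cv* muscles (SD, n = 4), again without overlap (log2 difference 0.29, exact p = 0.0286, adjusted 0.0762). This pair was nearly constant within a group, although *mdx5cv* replicate 4 had the lowest normalized counts of its group for both genes. *Cacnb1* to *Cacna1s* stood at 0.151 ± 0.0262 in the WT muscles and at 0.137 ± 0.0175 in the *mdx5cv* muscles (SD, n = 4), with overlapping groups (log2 difference -0.14, exact p = 0.429, adjusted 0.429).

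Calcium release from the reticulum is carried by *Ryr1*, the main ryanodine receptor of adult muscle, on the minus strand of chromosome 7 from 29003344 to 29125179. Its normalized counts were 64209, 49004, 55435 and 70878 in WT and 66832, 59452, 63402 and 48928 in *mdx5cv*. The groups lay over each other, with the highest value in WT replicate 4 and the lowest in *mdx5cv* replicate 4. The log2 fold change was -0.00 (SE 0.18, adjusted p = 0.997 in limma), and its 95% interval of -0.40 to 0.40 leaves room for moderate differences in either direction. *Ryr1* to *Cacna1s* stood at 1.13 ± 0.21 in the WT muscles and at 1.32 ± 0.0434 in the *mdx5cv* muscles (SD, n = 4), with overlapping groups (log2 difference 0.24, exact p = 0.171, adjusted 0.274). The channel and its voltage sensor were thus closer to a fixed ratio among the *mdx5cv* muscles than among the WT muscles, a difference in spread that was not tested.

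*Ryr3*, the minor isoform that is best known from developing muscle and the diaphragm, lies on the minus strand of chromosome 2 from 112631355 to 113217096 and was scarce, with 10 to 79 reads per muscle. Its normalized counts were 29.8, 29.6, 11.1 and 30.7 in WT and 45.4, 22.6, 39.6 and 63.1 in *mdx5cv*. All *mdx5cv* muscles but replicate 2 were above every WT muscle, and the groups overlapped. The log2 fold change was 0.75 (SE 0.36, 95% interval -0.02 to 1.51, adjusted p = 0.111 in limma) and did not pass, although it passed under equal totals, relative to the fast fiber list, and without *mdx5cv* replicate 2 (1.01). Without *mdx5cv* replicate 4 it was 0.53, and without WT replicate 3, the muscle with the lowest value, 0.41 (adjusted p = 0.324, with a range over all alternatives of 0.0305 to 0.324). The end of *Ryr3* overlaps *Aven*, a gene of the opposite strand with 72.7 to 97.6 normalized counts, and whether the counting used strand is not stated, so reads of these genes cannot be told apart in the overlap. *Ryr3* to *Ryr1* stood at 0.000489 ± 0.000193 in the WT muscles and at 0.000856 ± 0.000445 in the *mdx5cv* muscles (SD, n = 4) (log2 difference 0.75, exact p = 0.229, adjusted 0.305), with *Ryr1* far more abundant than *Ryr3* in all muscles.

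Junctophilins have a membrane anchor in the reticulum and bind the tubule membrane with their other end. *Jph1*, the isoform typical of skeletal muscle, lies on the minus strand of chromosome 1 from 16964560 to 17097889 and had 5989, 5962, 7078 and 6764 normalized counts in WT and 4225, 3596, 4176 and 2732 in *mdx5cv*. All *mdx5cv* values were under all WT values. *Jph1* fell to 57.1% of the WT mean, with a log2 fold change of -0.83 (SE 0.14, 95% interval -1.13 to -0.52, adjusted p = 0.000509 in limma). This was the lowest log2 fold change of the 10 genes, and the call was made under all 20 alternatives, with values from -0.90 to -0.46 and adjusted p from 4.28e-07 to 0.0153. Without *mdx5cv* replicate 4, the lowest muscle, it was -0.69.

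*Jph2*, the isoform that heart shares with skeletal muscle, lies on the minus strand of chromosome 2 from 163336242 to 163397993. Its normalized counts were 4945, 5245, 5231 and 6983 in WT and 5957, 4549, 6289 and 4258 in *mdx5cv*. The groups overlapped over most of their ranges, and WT replicate 4 was the highest of all muscles. The log2 fold change was -0.10 (SE 0.15, 95% interval -0.42 to 0.23, adjusted p = 0.644 in limma), and 0.01 without WT replicate 4. The difference between the junctophilins was tested through their ratio. *Jph2* per *Jph1* was 0.970, 1.03, 0.868 and 1.21 in WT and 1.66, 1.49, 1.77 and 1.83 in *mdx5cv*. Levels of the isoforms were about equal in WT, and *Jph2* exceeded *Jph1* in 4 of 4 *mdx5cv* muscles. The log2 difference was 0.73, with no overlap (exact p = 0.0286, the smallest possible). After adjustment this p came to 0.0762 and did not pass, which full separation of only a few of the 8 pairs cannot do. No window was matched for *Jph1*, so its upstream DNA was not searched. The stretch before the upstream RefSeq start of *Jph2*, at chr2:163397994-163398243 on the minus strand, has the motif in capitals, beginning 9 bases before the start.
Jph2: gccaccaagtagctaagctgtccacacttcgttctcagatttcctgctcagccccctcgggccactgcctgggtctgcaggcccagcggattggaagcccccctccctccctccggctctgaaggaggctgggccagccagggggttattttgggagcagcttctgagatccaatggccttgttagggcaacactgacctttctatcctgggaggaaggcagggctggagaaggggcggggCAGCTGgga

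**Figure D3:**
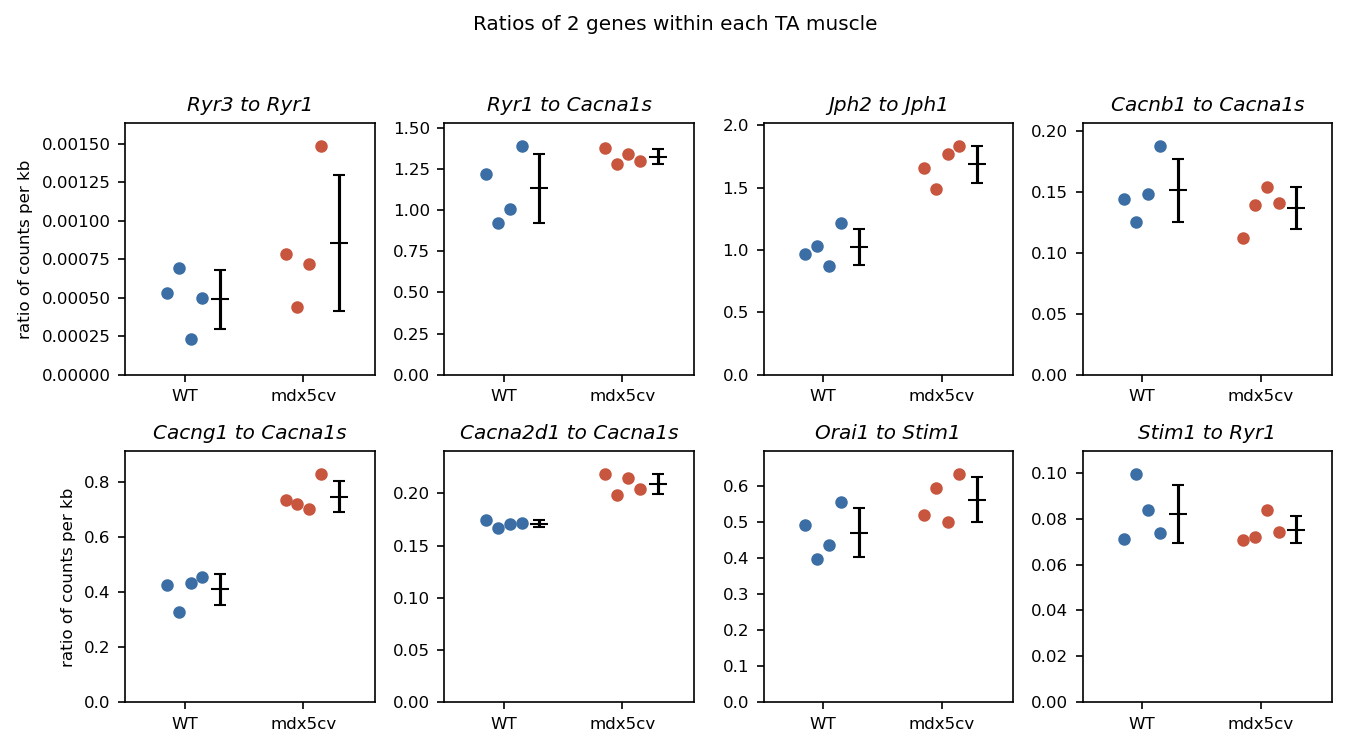
Ratio of normalized counts per kilobase of summed exons (y axis, linear, from 0) for 8 pairs of genes in each of 4 WT (blue) and 4 *mdx5cv* (red) TA muscles, with the mean and SD in black. The groups are separated for *Jph2* to *Jph1*, *Cacng1* to *Cacna1s* and *Cacna2d1* to *Cacna1s*, each with exact p = 0.0286 and 0.0762 after adjustment over 8 pairs, and overlap for the other 5 pairs.

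Store-operated entry begins with *Stim1*, the calcium sensor of the reticulum, on the plus strand of chromosome 7 from 102267806 to 102437319. It had 2174 to 2477 normalized counts in WT and 1723 to 2523 in *mdx5cv*, where replicate 4 was the lowest and replicate 3 the highest of all muscles. The log2 fold change was -0.12 (SE 0.12, 95% interval -0.37 to 0.14, adjusted p = 0.459 in limma), and it was -0.02 without *mdx5cv* replicate 4 and -0.20 without *mdx5cv* replicate 3. *Orai1*, the pore, lies on the plus strand of chromosome 5 from 123015074 to 123030456 and was at 236, 204, 212 and 304 normalized counts in WT and 258, 267, 279 and 241 in *mdx5cv*. The *mdx5cv* muscles were within the range of the WT muscles, and WT replicate 4 was the highest. The log2 fold change was 0.14 (SE 0.13, 95% interval -0.14 to 0.43, adjusted p = 0.413 in limma), and it was 0.27 without WT replicate 4 and 0.07 without WT replicate 2. Neither gene passed the test with the deposited size factors, and their intervals leave a log2 difference of up to 0.43 in *Orai1* possible.

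*Orai1* to *Stim1* stood at 0.470 ± 0.0681 in the WT muscles and at 0.562 ± 0.0621 in the *mdx5cv* muscles (SD, n = 4), with overlapping groups (log2 difference 0.26, exact p = 0.114, adjusted 0.229). The ratio of *Stim1* to *Ryr1*, the sensor set against the channel that empties the store, was 0.0820 ± 0.0128 among WT muscles and 0.0752 ± 0.00593 among *mdx5cv* muscles (SD, n = 4) (log2 difference -0.12, exact p = 0.429, adjusted 0.429). Neither ratio passed the test, and the groups overlapped for both. The *Orai1* stretch at chr5:123014824-123015073 on the plus strand has the motif in capitals, beginning 246 bases before the start, at its far end. This stretch lies within an annotated antisense gene of the opposite strand, whose exons were not left out.
Orai1: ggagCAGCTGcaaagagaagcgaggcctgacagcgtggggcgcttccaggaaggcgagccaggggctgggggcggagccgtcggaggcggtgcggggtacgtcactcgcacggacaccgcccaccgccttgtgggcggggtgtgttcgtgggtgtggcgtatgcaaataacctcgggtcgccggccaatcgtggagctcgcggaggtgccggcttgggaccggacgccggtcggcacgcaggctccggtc

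Per kilobase of summed exons, *Ryr1* (2742 ± 441) and *Cacna1s* (2430 ± 78.0) had the highest levels in WT and overlapped (SD, n = 4). They were followed by *Jph2* (1316 ± 219) and *Jph1* (1290 ± 112), which overlapped, by *Cacng1* (995 ± 137), and by *Cacna2d1* (416 ± 14.3) and *Cacnb1* (367 ± 56.3), which overlapped. *Stim1* (221 ± 13.2), *Orai1* (104 ± 19.8) and *Ryr3* (1.33 ± 0.501) came last, each apart from its neighbours. In *mdx5cv* the order of levels per kilobase was the same except that *Cacng1* (1528 ± 82.9) stood in the third place, where it overlapped with *Jph2* (1237 ± 237) and was above *Jph1* (737 ± 139). Apart from that pair, no neighbours overlapped in *mdx5cv*. Taking the longest transcript as the length put *Ryr1* clear of *Cacna1s* in WT, at 3899 and 2546 per kilobase. This length also put *Stim1* (525) before *Cacnb1* (489) in WT with overlapping ranges, although these genes were apart by summed exons. In *mdx5cv* it made *Stim1* and *Cacnb1* overlap, as well as *Jph1* and *Cacna2d1*. The order of some neighbours, and whether they overlap, thus depends on the length used.

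The same muscles were the low or high ones for many of the genes. *mdx5cv* replicate 4 had the lowest value of its group for 9 of the 10 genes, all but *Ryr3*, of which it had the highest. WT replicate 4 had the highest value of its group for 6 genes, and WT replicate 2 the lowest for 5. The fast fiber list was also lowest in *mdx5cv* replicate 4, and its part in these values was not tested. The median deviation of the 10 genes from their WT means was -0.33 in *mdx5cv* replicate 4 and -0.11 to 0.15 in the other *mdx5cv* muscles.

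Genes that work with these 10 were read from 4 lists with 63 entries, of which 52 passed the minimum count. In *mdx5cv* 14 were lower, 7 were higher and 31 did not pass, with a median log2 fold change of -0.25, and among all genes tested 20.1% were lower and 20.9% higher. With a log2 change of 1 or more as well there were 5 lower and 4 higher genes, beside 3.27% and 10.3% of all genes. Under equal totals the counts were 6 lower and 13 higher, and relative to the fast fiber list 6 and 11. Without *mdx5cv* replicate 4 they were 12 and 8.

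Other subunits of voltage-gated calcium channels were mostly scarce. Of 12 listed, 8 were tested, 4 were lower and 2 were higher, beside 20.1% and 20.9% of all genes tested. *Cacna2d4*, an alpha2-delta subunit known from the retina, fell from between 249 and 330 normalized counts in WT to between 37.6 and 109 in *mdx5cv* (log2 fold change -2.16, adjusted p = 2.78e-05 in limma). *Cacng7* fell with a log2 fold change of -1.84, *Cacnb2*, the beta subunit of heart, with -0.86, and *Cacng6*, the closest relative of *Cacng1*, with -0.56. *Cacng6* had 954 to 1265 normalized counts in WT and 601 to 884 in *mdx5cv*, so that these gamma subunits went in opposite directions, though the calls of *Cacnb2* and *Cacng6* were lost under equal totals and relative to the fast fiber list. *Cacna1d*, a pore-forming subunit of neurons and pacemaker cells, rose by 2.14 and *Cacnb3*, a beta subunit of other tissues, by 1.75 on the log2 scale, from at most 14.8 and 23.3 normalized counts in WT. *Cacna1c*, the cardiac and smooth muscle pore, had a log2 fold change of -0.01 (adjusted p = 0.953) that was positive under equal totals (0.34).

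Among partners of the triad and regulators of the release channel, 8 of 21 tested were lower and 2 higher, beside 20.1% and 20.9% of all genes tested. The scaffold proteins *Homer2* and *Homer1* fell by 2.38 and 1.23 on the log2 scale (adjusted p = 9.96e-06 and 6.47e-06 in limma). *Homer2* had 350 to 361 normalized counts in WT and 41.7 to 116 in *mdx5cv*, the WT values lying within a very narrow band. *Selenon*, a selenoprotein of the reticulum, rose by 1.05, and *Fkbp1a*, which encodes the ryanodine receptor stabiliser FKBP12 and was named after its value was seen, rose by 0.64. Lower genes of this list with changes of like size are counted above but not named. The most abundant genes of the list did not pass, namely *Casq1*, the calcium buffer of the reticulum (0.09, adjusted p = 0.735, -0.06 without WT replicate 2, and passing at 0.44 under equal totals), *Srl*, sarcalumenin (-0.30, adjusted p = 0.0976, passing in DESeq2 alone, and 0.06 under equal totals), and *Trdn*, triadin (-0.39, adjusted p = 0.0514). For *Trdn* the alternatives gave adjusted p from 0.0177 to 0.901, passing under 5 of them.

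Genes that shape the transverse tubule showed 0 lower and 1 higher of 10 tested, beside 20.1% and 20.9% of all genes tested. The higher gene was *Dysf*, the membrane repair gene dysferlin (0.40, named after its value was seen). *Bin1*, which bends the tubule membrane, had a log2 fold change of -0.14 and *Speg*, a kinase of the triad, one of -0.09, neither past the test, and both signs turned positive under equal totals (0.22 and 0.27). *Tcap*, which links the tubule to the Z-disc, had a log2 fold change of -0.53 that did not pass (adjusted p = 0.0516, range 0.00605 to 0.474 over the alternatives, passing under 5 of them).

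Of 13 store-operated entry partners tested, 2 were lower and 2 higher, beside 20.1% and 20.9% of all genes tested. *Stim2*, the sensor of small drops in store calcium, fell by 0.59 (adjusted p = 0.000539 in limma), from 568 to 671 normalized counts in WT to 375 to 449 in *mdx5cv*, and the call was lost under equal totals (-0.23, adjusted p = 0.157, with a range over all alternatives of 1.25e-06 to 0.379) and relative to the fast fiber list. *Saraf*, a brake on STIM1, fell by 0.33 (adjusted p = 0.0268), and its log2 fold change was 0.03 under equal totals and 0.04 relative to the fast fiber list. The call of *Saraf* was kept under 14 of 20 alternatives, with adjusted p from 0.0164 to 0.873. *Orai2*, a relative of *Orai1*, rose by 1.98 from at most 11.1 normalized counts in WT to between 33.0 and 48.2 in *mdx5cv*. Its WT mean of 9.60 was under the minimum of 10, so *Orai2* was tested only through its *mdx5cv* counts. *Esyt1*, a tether between the reticulum and the plasma membrane that was named after its value was seen, rose by 0.81. The sensors *Stim1* and *Stim2* thus had log2 fold changes of -0.12 and -0.59, and a difference between them was not tested.

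**Figure D4:**
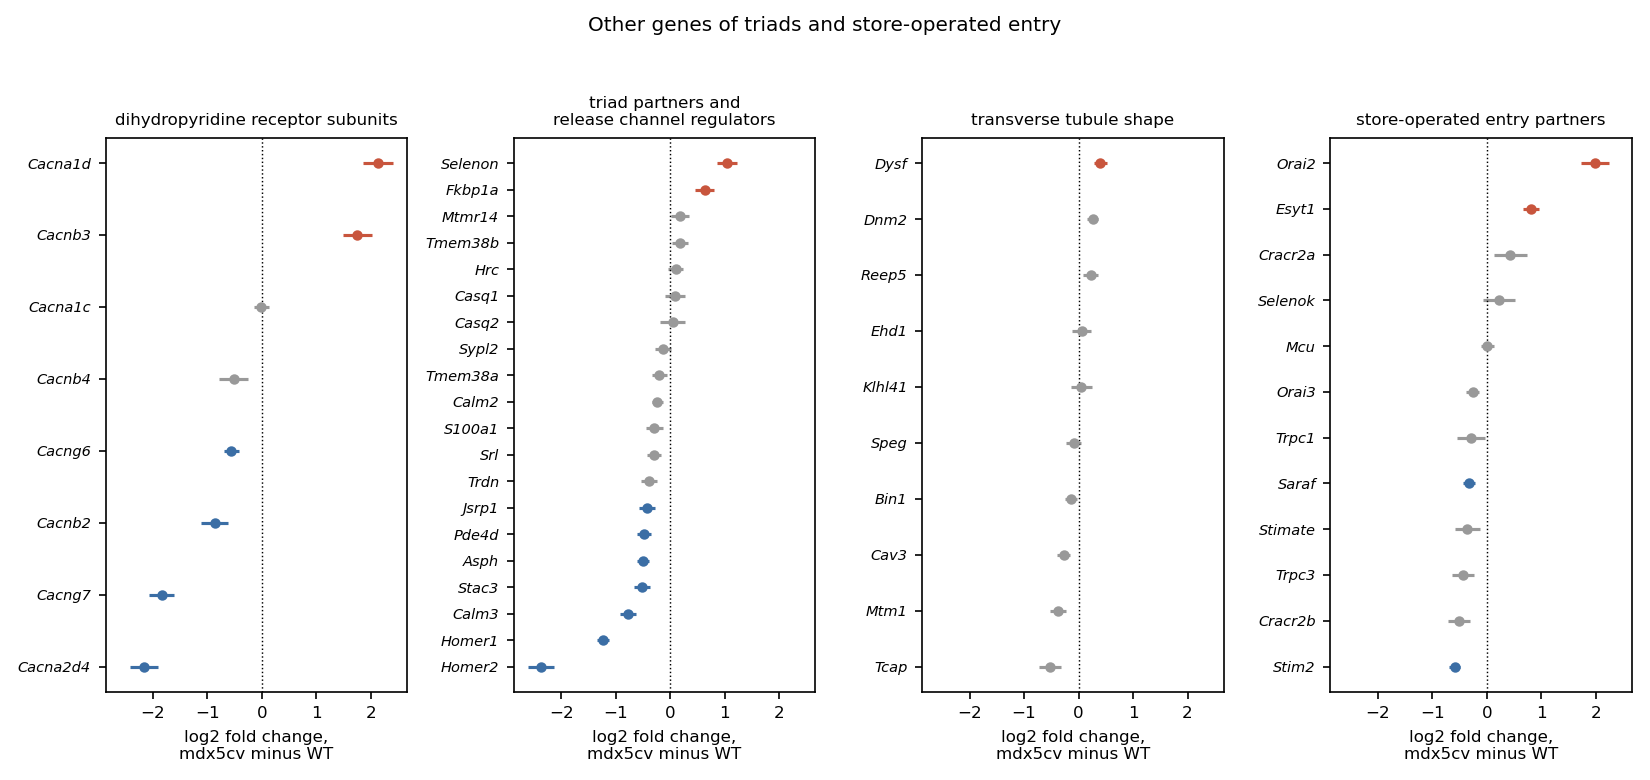
Log2 fold change (x axis, *mdx5cv* minus WT, with the standard error from limma, 4 muscles per group) of tested genes of 4 lists, with genes at an adjusted p under 0.05 in red where higher and in blue where lower and the others in grey. *Homer2* (-2.38) and *Cacna2d4* (-2.16) lie farthest to the left, *Cacna1d* (2.14) and *Orai2* (1.98) farthest to the right, and the list of transverse tubule genes holds only 1 called gene. *Orai2* reached the minimum count only through its *mdx5cv* values.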

How the data were processed

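Bulk RNA-seq of 4 *mdx5cv* and 4 WT TA muscles was analysed. The authors deposited a signal per gene, the read count divided by a size factor for each muscle. The labels describe RNA isolated with Trizol and stranded total RNA libraries. The submitters' processing notes name FastQC, Trim Galore 0.6.4, STAR 2.6.0c, SAMtools 1.9, featureCounts, MultiQC 1.6, DESeq2 1.26.0, R 3.6.2 and mm10, and their roles, order and settings, including whether counting used strand, are not given in the sources used here. Whole reads were recovered from 100% of the values (tolerance 0.01), and the size factors matched median-of-ratios factors computed again from the reads. Replicates differed by more than sampling noise (chi-square per degree of freedom of 9.55 to 43.2), so each library counts as 1 sample.

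The 13677 genes whose mean normalized count reached 10 were compared as log2(normalized count + 1) with limma 3.58.1 in R 4.3.3, using lmFit and then eBayes with its variance trend. Tests were two-sided, p-values were adjusted by the Benjamini-Hochberg method, and no covariate was used. The pseudocount understates changes of scarce genes. edgeR 4.0.16 and DESeq2 1.42.0 on the recovered reads were alternatives. At an adjusted p under 0.05 limma called 2743 genes lower and 2854 higher, edgeR 2681 and 2869, and DESeq2 2742 and 2809. Depth of 13175524 to 14921057 reads left at least 10 reads on every member in every muscle. Exact permutation tests of ratios, the other scalings, filters and pseudocounts, the replicate block and each replicate left out in turn were computed with Python 3.11.15, numpy 2.4.6, pandas 2.3.3 and scipy 1.17.1, and plots with matplotlib 3.10.9. The group comparisons with limma, edgeR and DESeq2 were tested on simulated data, and the other steps were not.

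Lengths and positions are those of GENCODE M21 on GRCm38, in which 55141 of 55401 gene IDs were found. The members, the pathway and marker lists and the tests were chosen with earlier results of these data known. The named genes were the 10 members, *Dmd*, the pathway genes at an adjusted p under 0.05 that also changed by a log2 value of 1 or more, and at most 3 more per list with the highest mean count. Some genes that this rule names are counted in their lists but are not reported here by name. *Dysf*, *Fkbp1a* and *Esyt1* were named after their values were seen, as were *Aven*, *Myh6* and *Nppa*. *Dysf*, *Fkbp1a* and *Esyt1* all rose, and their values under the alternatives are not given here. Marker lists covered fast, slow and regenerating fibers, macrophages, fibroblasts, smooth muscle, endothelium, lymphocytes and heart.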

Additional observations from a re-analysis of the deposited data

Results flagged for a closer look

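In 8 of 94 sets of 4 muscles, 1 muscle lay far from the other 3 of its group, and chance alone marks about 1 in 20 such sets, or 4.7 of 94. The values are log2 normalized counts. *Ryr3* was lowest in WT replicate 3, at 3.59 against 4.94 to 4.99 in the other WT muscles. *Cacna1s* was lowest in *mdx5cv* replicate 4, at 13.46 against 13.77 to 13.83. *Jph2* was highest in WT replicate 4, at 12.77 against 12.27 to 12.36. Among the pathway genes, *Cacna1c* was lowest in *mdx5cv* replicate 3 (6.95), *Cacng7* in WT replicate 2 (5.69), *Trdn* in *mdx5cv* replicate 4 (12.98) and *Casq1* in WT replicate 2 (14.01). The median log2 deviation of the fast fiber list was lowest in WT replicate 2, at -0.14 against 0.00 to 0.03 in the other WT muscles.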

How the results depend on the processing

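Of 200 values of member fold changes over 20 alternatives each, 172 kept their direction and side of the threshold. With the sign kept, 8 lost a call and 7 gained one, and 13 changed sign. Among the sign changes, *Ryr1* relative to the fast fiber list also gained a call (adjusted p = 0.0416 in limma). The 88 values of ratios kept their sign, none passing the adjusted threshold, which a design of 3 muscles against 4 cannot reach. *Jph1* and *Cacng1* were called under all 20. The scaling moved the counts most. Under equal totals 1 member was lower and 4 were higher (pathway genes 6 and 13), and relative to the fast fiber list 1 and 5 (pathway genes 6 and 11). Without the variance trend 1 member was lower. With 1 replicate left out, 1 to 2 members were lower and 1 to 2 higher. Signs turned under equal totals and relative to the fast fiber list for *Ryr1* (0.36 and 0.36), *Cacna1s* (0.11 and 0.12), *Jph2* (0.26 and 0.27), *Stim1* (0.24 and 0.25), *Cacna1c* (0.34 and 0.35), *Srl* (0.060 and 0.066), *Bin1* (0.22 and 0.23), *Speg* (0.27 and 0.27) and *Saraf* (0.031 and 0.037), and both scalings add about the same shift to all genes. With a replicate left out, signs turned for *Ryr1* (values from -0.093 to 0.091), *Cacna2d1* (-0.018 to 0.14), *Jph2* (-0.19 to 0.014), *Cacna1c* (-0.078 to 0.059) and *Casq1* (-0.062 to 0.21), for which the cause was not tested.

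With the replicate number as a block, 2 members were lower and 1 higher, as without it, and 18 pathway genes were lower against 14. Muscles that share a number had correlations of 0.05, 0.03, 0.07 and 0.15 between their deviations from the group means, not all above 0.1, and not every muscle correlated best with its own number, so the numbers were not taken to pair the muscles. The exact test of same-number ratios, which with 4 pairs cannot pass, gave adjusted p from 0.25 to 0.5. Precision is limited by 4 muscles per group, and for *Ryr3* also by depth.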
